A study of Mus musculus with 8 samples.

Results

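The purine receptors and ectonucleotidases measured here were 10 genes that decode or remove extracellular nucleotides and adenosine: P2ry2, P2ry6, P2ry13, P2ry14, P2rx4, P2rx7, Adora2a, Adora2b, Entpd1 and Ada. They were taken from the array by gene symbol, every probe included, which gave 19 of the 25697 probes. A probe was tested when 2 or more arrays detected it (detection p under 0.05), which held for 15 member probes and for 13868 probes in all. All 10 genes kept at least 1 tested probe.

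Stressed, activated and dying cells release ATP, UTP, UDP and nucleotide sugars, and macrophages read them through G protein-coupled P2Y receptors and ATP-gated P2X channels. The surface enzyme CD39, encoded by Entpd1, strips phosphates from ATP and ADP, CD73 turns the resulting AMP into adenosine, and adenosine deaminase, encoded by Ada, converts adenosine to inosine. Adenosine acts on receptors of its own, of which those encoded by Adora2a and Adora2b raise cyclic AMP and are known for restraining inflammatory macrophages, while P2X7 is known for opening the way to inflammasome activation.

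The study asked how the loss of inducible nitric oxide synthase (iNOS, the product of Nos2) alters classically activated, or M1, macrophages. Bone marrow from 8-week-old female mice of the C57bl/6J strain, wild type (WT) or iNOS deficient, was grown for 7 days in GM-CSF at 10 ng/ml. Cells were then left unstimulated, or given LPS at 200 ng/ml with IFNg at 10 ng/ml for 6 h to obtain M1 macrophages. Each of the 4 combinations of genotype (WT, iNOS-/-) and state (unstimulated, M1) was hybridised to 2 bead arrays. All groups therefore shared the GM-CSF culture, a condition that also yields dendritic cells. The mutation was carried in every cell of the mouse, on an allele that the strain name in the methods places on a C57BL/6 background after crossing from another strain. Whether a group's arrays stem from separate mice or cultures is not given in the sources used here, so the p-values measure only the spread between these arrays.

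Between 11833 and 12673 probes were detected per array, and the scale factors used to match the arrays ran from 0.813 to 1.30. Arrays of the same group differed by a median of 0.16 to 0.19 log2 units over the tested probes, against 0.34 to 0.82 between groups. The closest groups were WT M1 and iNOS-/- unstimulated (0.34 to 0.36). All 10 macrophage markers were detected on every array, and among 10 T, B and NK lymphocyte markers none was detected on both arrays of a group. The Nos2 probe was undetected on the 4 unstimulated arrays, and its scaled intensity was 177 and 132 in WT M1 and 180 and 204 in the M1 arrays labelled iNOS-/- (log2 difference 0.32 ± 0.32, SE, adjusted p = 0.445). That probe lies at base 3546 of the transcript, and the sources used here do not say which part of the gene was removed, so it is no check of the genotype and the arrays are called by their labels. Scaled intensity is the deposited signal times the scale factor of its array, and a level was compared between arrays for the same probe only, so sums over markers, which bright probes dominate, are descriptions. In RNA from a whole culture, fewer cells of a type and less RNA per cell cannot be told apart.

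Sequences are shown for the genes whose levels separated the groups most clearly. The first set is the DNA upstream of the RefSeq gene start (build GRCm38.p6, gene strand, 5′ to 3′) of the adenosine receptor and of the P2Y receptors that rose after stimulation, and of the channel that was lower in the arrays labelled iNOS-/-. Capitals mark matches on either strand to GGG, any 5 bases and then CC, a loose form of the site bound by NF-kB.
Adora2b, chr11:62248734-62248983: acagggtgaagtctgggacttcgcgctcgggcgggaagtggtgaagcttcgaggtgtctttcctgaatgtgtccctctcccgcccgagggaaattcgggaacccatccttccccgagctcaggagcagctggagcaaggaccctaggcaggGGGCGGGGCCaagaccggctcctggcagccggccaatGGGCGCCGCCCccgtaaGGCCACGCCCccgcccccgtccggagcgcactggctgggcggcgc
P2ry13, chr3:59210883-59211132: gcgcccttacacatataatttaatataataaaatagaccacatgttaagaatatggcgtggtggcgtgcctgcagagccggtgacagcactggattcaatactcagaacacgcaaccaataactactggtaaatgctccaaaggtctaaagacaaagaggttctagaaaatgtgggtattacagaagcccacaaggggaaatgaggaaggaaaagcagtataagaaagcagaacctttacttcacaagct
P2ry14, chr3:59153493-59153742: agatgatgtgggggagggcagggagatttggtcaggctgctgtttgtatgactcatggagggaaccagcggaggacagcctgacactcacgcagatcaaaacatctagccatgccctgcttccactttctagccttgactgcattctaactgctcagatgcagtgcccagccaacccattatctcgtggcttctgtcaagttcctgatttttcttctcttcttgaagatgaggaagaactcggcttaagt
P2rx4, chr5:122707294-122707517: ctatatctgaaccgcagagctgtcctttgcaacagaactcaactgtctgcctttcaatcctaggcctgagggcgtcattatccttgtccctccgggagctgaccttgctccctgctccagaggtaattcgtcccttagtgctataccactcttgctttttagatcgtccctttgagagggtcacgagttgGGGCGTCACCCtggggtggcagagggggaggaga
The Adora2b stretch was rich in G and C (69.6%) and held 4 matches, 2 of which overlap each other. The shorter P2rx4 stretch of 224 bases (54.5%) held 2 that also overlap each other, and the P2ry13 and P2ry14 stretches held 0. P2ry14 has 4 windows in the table, and the one shown is the farthest upstream, while another holds 1 match. Of all 32851 windows of 250 bases upstream of a start, 45.8% held this pattern, so it is common. The 8 members with a window in the table had 14 windows in all, of which 7 held a match. On both strands, the STAT pattern TTCNNNGAA was found upstream of Ada alone among the members (7.02% of all windows), and GAAA, any 2 bases and GAAA again, a form of the interferon-stimulated element, in none of them (2.98% of all windows). P2ry6 and Adora2a had no entry. A match is a description of letters and not evidence of binding.

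The second set is a pair of array probes, shown because P2rx4 and P2rx7 are neighbours on chromosome 5 (15181 bases apart in GRCm38.p6) and encode related channels whose probes could in principle take up each other's RNA. Capitals mark the longest run that the 2 probes share, 12 of 50 bases.
P2rx7 ILMN_2620381: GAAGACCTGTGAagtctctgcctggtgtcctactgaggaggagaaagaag
P2rx4 ILMN_2620122: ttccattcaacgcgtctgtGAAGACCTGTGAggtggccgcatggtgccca
No other pair among the 19 member probes shared a run of more than 9 bases on either strand. P2ry2 and P2ry6 are neighbours too, side by side on chromosome 7 (21069 bases apart).

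Across the 4 groups the members moved in different directions. After stimulation of WT cells, 4 of the 15 tested member probes were called higher and 1 lower at an adjusted p under 0.05 (limma, Benjamini-Hochberg over all tested probes), where 20.8% of all tested probes were called higher and 14.3% lower. In the arrays labelled iNOS-/- the same stimulation gave 7 member probes called higher and 2 lower, against 25.2% and 25.1% of all probes. One of the 7, a probe of P2ry2, was undetected in both of those groups, so its direction is not read. The Adora2a probe, also among the 7, entered the test through the group where it was high. Between genotypes, 2 member probes were higher and 4 lower in unstimulated arrays labelled iNOS-/- (16.7% and 15.4% of all probes), and 5 were higher and 3 lower in M1 arrays (22.9% and 25.3%). The response to stimulation itself differed between genotypes for 6 member probes, 4 with a more upward and 2 with a more downward change in the arrays labelled iNOS-/-, where 19.4% of all probes were called in the first direction and 22.6% in the second. The P2ry2 probe, detected in WT unstimulated alone, is again among the 4, and it is among the 4 lower in unstimulated arrays.

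The median log2 change of the 15 member probes was -0.15 in WT M1 over WT unstimulated (0.09 over all tested probes) and 0.88 in iNOS-/- M1 over iNOS-/- unstimulated (0.00 over all). For iNOS-/- against WT it was -0.67 in unstimulated arrays (0.00 over all) and 0.31 in M1 arrays (-0.03 over all). For the difference of the responses it was 0.39 (-0.05 over all). Several probes report the same gene, and the comparisons share arrays, so these counts are not independent of each other. Leaving out 1 array brought the WT count of 5 called probes down to 3 in the cases of either unstimulated WT array and of WT M1 array 2. By another scaling the split of all calls in WT shifted, with 59.3% of calls higher here, 47.4% after quantile normalization and 44.4% after neqc, and the median change of all probes moved from 0.09 to -0.06 and -0.04. The median of all probes in the iNOS-/- response moved from 0.00 to -0.13 and -0.06.

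**Figure D1:**
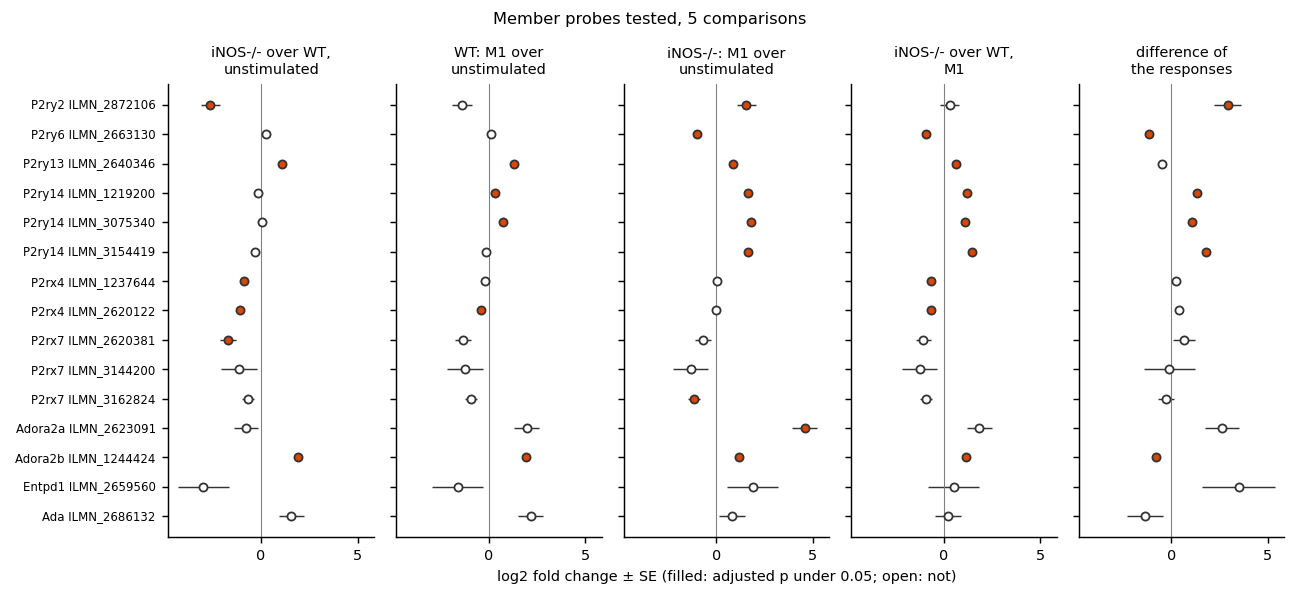
Each row is a tested member probe and each panel a comparison, with the log2 fold change on the horizontal axis, the bar giving its standard error, and filled points marking an adjusted p under 0.05. P2ry14 and Adora2b sit well to the right in the iNOS-/- response, P2rx4 sits left of 0 in both comparisons of genotypes, and the bars of Entpd1 and Ada are wide.

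Adora2b, which encodes the low-affinity A2B adenosine receptor, was the only member called in all 5 comparisons. Its scaled intensity was 124 and 125 in WT unstimulated, 521 and 448 in WT M1, 469 and 482 in iNOS-/- unstimulated, and 1083 and 1085 in iNOS-/- M1. The lowest and highest groups stood apart from every other array, and the unstimulated arrays labelled iNOS-/- fell inside the range of WT M1. WT M1 and iNOS-/- unstimulated were also the closest groups over all tested probes. Stimulation raised Adora2b 3.88-fold in WT (log2 1.96 ± 0.10, SE, n = 2 arrays per group, adjusted p = 0.000197 by limma) and 2.28-fold in the arrays labelled iNOS-/- (log2 1.19 ± 0.10, adjusted p = 0.000467). It was 3.82-fold higher in the labelled iNOS-/- arrays before stimulation (log2 1.93 ± 0.10, adjusted p = 0.000235) and 2.24-fold higher after it (log2 1.17 ± 0.10, adjusted p = 0.000674). The log2 response was smaller by 0.77 ± 0.14 in the arrays labelled iNOS-/- (interaction log2 -0.77, adjusted p = 0.00992), which started from the higher level. Adora2b and Nos2 both lie on chromosome 11, 16654334 bases apart in GRCm38.p6, and the part of any strain-derived DNA around the mutated gene in this difference was not tested.

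Adora2a, the high-affinity adenosine receptor that also signals through cyclic AMP, was near background. Scaled intensity was 0.616 and 2.94 in WT unstimulated, 4.23 and 10.7 in WT M1, 0.171 and 0.406 in iNOS-/- unstimulated, and 23.3 and 24.7 in iNOS-/- M1. It was detected on 3 arrays only, both of iNOS-/- M1 and the brighter of WT M1. The rise with stimulation in the arrays labelled iNOS-/- was at least 4.80-fold, a bound set against the dimmest detected signal because neither unstimulated array was above background. The fit called this rise (adjusted p = 0.00268), but it is a description only, since the probe entered the test through the group where it was high. In WT the corresponding change missed the threshold (adjusted p = 0.0645 by limma), and no bound is given since 1 of the 2 WT M1 arrays was undetected. M1 arrays labelled iNOS-/- lay above WT M1 without overlap, but that difference was not called (log2 1.84 ± 0.64, adjusted p = 0.0625), nor was the difference of the responses (log2 2.62 ± 0.90, adjusted p = 0.0677).

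P2ry13, a Gi-coupled receptor for ADP, followed the same order of groups as Adora2b. Its scaled intensity was 149 and 134 in WT unstimulated, 389 and 329 in WT M1, 315 and 287 in iNOS-/- unstimulated, and 533 and 570.5 in iNOS-/- M1. No 2 groups overlapped. Stimulation raised it 2.52-fold in WT (log2 1.34 ± 0.13, adjusted p = 0.00143) and 1.84-fold in the arrays labelled iNOS-/- (log2 0.88 ± 0.13, adjusted p = 0.00302). The labelled iNOS-/- arrays were 2.12-fold above WT when unstimulated (adjusted p = 0.00288) and 1.54-fold above it as M1 cells (adjusted p = 0.0111). The last of these was lost without iNOS-/- M1 array 2 (adjusted p = 0.0508), and the difference of the responses was not called (log2 -0.46 ± 0.18, adjusted p = 0.0919).

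Several markers of dendritic and mast cells also differed between the groups. The summed scaled intensity of 10 dendritic cell markers was 836 to 837 in WT unstimulated, 16185 to 16736 in WT M1, 13667 to 14529 in iNOS-/- unstimulated and 34818 to 36547 in iNOS-/- M1. Ccl17 and Il4i1 made up most of the sum in every group, at 10966 and 11479 and at 4546 and 4620 in WT M1. Of the 8 tested, 6 were called higher in WT M1 and 6 in iNOS-/- unstimulated against WT unstimulated, and 3 were called higher and 1 lower in iNOS-/- M1 against WT M1. The lower one was Cd209a, undetected in iNOS-/- M1 and at 27.6 and 35.8 in WT M1, and Itgax read 201 and 173 there against 236 and 271. Of these 10 markers, Flt3 was undetected on every array, and Xcr1 and Clec9a were detected on 1 and 2 arrays. The sum of 7 mast cell and basophil markers ran from 38.2 to 47.4, 501 to 538, 405 to 407 and 2147 to 2229.9 in the same groups, with Mcpt8, Mcpt4 and Ms4a2 undetected throughout and Fcer1a called in no comparison. Hdc alone read 1840 and 1756 in iNOS-/- M1. For 8 granulocyte markers, of which Mpo was undetected throughout, the sums were 1117 to 1148, 1399 to 1504, 1679 to 1747 and 3866 to 3991. S100a8 was the brightest of them in every group. Of the 7 tested, 4 were called higher and 1 lower in WT M1 against WT unstimulated, and 5 and 1 in iNOS-/- unstimulated. The lower one was Mmp8 both times (log2 -1.73 and -1.33, adjusted p = 0.00312 and 0.00747 by limma), and Ela2 was called in no comparison. The 10 macrophage markers moved both ways. In iNOS-/- M1 against WT M1, 3 were called higher and 5 lower (22.9% and 25.3% of all probes). Their changes ran from log2 -1.29 for Csf1r to 1.45 for Cd14. Between unstimulated genotypes 1 was higher and 3 lower (16.7% and 15.4% of all probes). The part of any of these cell types in the Adora2b, P2ry13 or other member results was not tested.

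P2ry14, the receptor for UDP-glucose and related nucleotide sugars, rose most in the M1 arrays labelled iNOS-/-. Its brightest probe, ILMN_1219200, read 3065 and 3055 in WT unstimulated, 3834 and 3832 in WT M1, 2600.3 and 2952 in iNOS-/- unstimulated, and 8669 and 8779.7 in iNOS-/- M1. The last group was the highest on all 3 probes of the gene, and it overlapped no other. On the 3 probes the rise with stimulation in the arrays labelled iNOS-/- was 3.15-fold, 3.45-fold and 3.12-fold, with adjusted p-values of 0.000132, 0.000343 and 0.000218. The excess over WT M1 was 2.28-fold, 2.18-fold and 2.79-fold (adjusted p = 0.000520, 0.00199 and 0.000442), and the difference of the responses was called on each probe (log2 1.33 ± 0.13, 1.05 ± 0.19 and 1.79 ± 0.15).

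In WT cells and in unstimulated cells P2ry14 differed much less. None of its probes was called between unstimulated genotypes, with log2 values from -0.31 to 0.07. After stimulation of WT cells the probes disagreed: ILMN_1219200 gave log2 0.33 ± 0.09 (adjusted p = 0.0451), ILMN_3075340 gave 0.74 ± 0.14 (adjusted p = 0.0124), and ILMN_3154419 gave -0.15 ± 0.11 (adjusted p = 0.334). The first of these lost its call under quantile normalization (adjusted p = 0.115) and when any array of the pair of groups was left out (adjusted p from 0.135 to 0.144), and the second without either unstimulated WT array (adjusted p = 0.0625 and 0.0526). The deposited annotation types ILMN_3075340 as specific to a transcript isoform and places it near the 5′ end of the transcript, at base 312, with the other probes at bases 1691 and 1607. It read 43.3 and 45.2 in WT unstimulated and 155 and 166 in iNOS-/- M1.

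**Figure D2:**
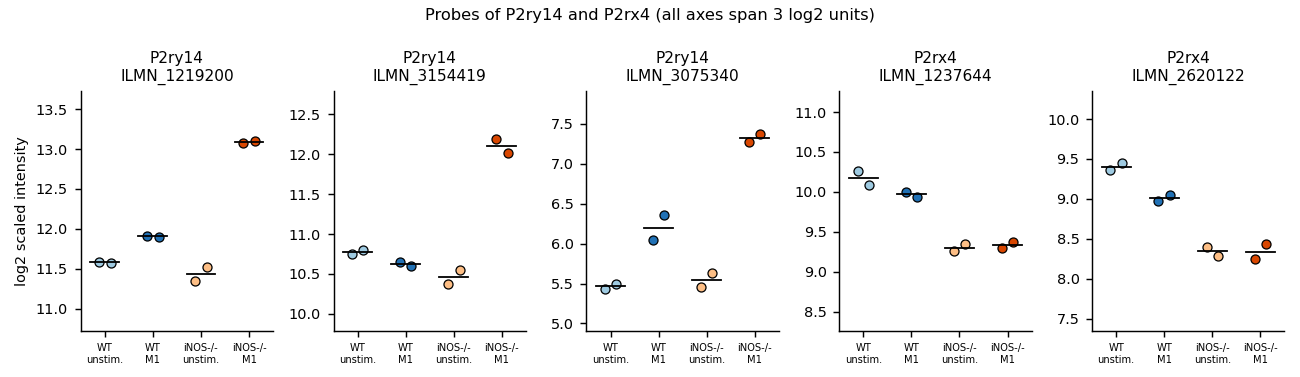
Log2 scaled intensity of each array (points) and the mean of the 2 arrays (bars) for the 3 probes of P2ry14 and the 2 probes of P2rx4, each axis spanning 3 log2 units. All 3 P2ry14 probes are highest in iNOS-/- M1, and both P2rx4 probes are lower in the arrays labelled iNOS-/- than in WT whether stimulated or not.

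P2ry6, the UDP receptor known for phagocytosis and chemokine release, went the other way. Scaled intensity was 1879 and 1997 in WT unstimulated, 2063 and 2239 in WT M1, 2267 and 2305 in iNOS-/- unstimulated, and 1239 and 1058 in iNOS-/- M1. The first 3 groups lay close together, and iNOS-/- M1 lay below them all. With stimulation it fell by 1.0 on the log2 scale in the arrays labelled iNOS-/- (SE 0.11, adjusted p = 0.00120), to about the same extent as its deficit against WT M1 (log2 -0.91 ± 0.11, adjusted p = 0.00200). In WT the change was log2 0.15 ± 0.11 (adjusted p = 0.346), and the responses differed by log2 -1.15 ± 0.16 (adjusted p = 0.00388). Between unstimulated genotypes log2 0.24 ± 0.11 was not called (adjusted p = 0.165), although it was after quantile normalization (log2 0.42, adjusted p = 0.0280).

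P2ry2, the receptor for ATP and UTP that neighbours P2ry6, was at the edge of detection. Its tested probe, ILMN_2872106, read 8.27 and 9.19 in WT unstimulated, where both arrays were detected, and nothing was detected on the other 6 arrays, which ran from -0.342 to 5.17. Unstimulated arrays labelled iNOS-/- were lower than WT by at least 1.74-fold, a description only, since the probe entered the test through the group where it was high. The fit also called the iNOS-/- response and the difference of the responses, but these are formed from groups that were not above background, so nothing is read from them. The other probe of the gene, ILMN_2689964, was undetected on all 8 arrays.

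**Figure D3:**
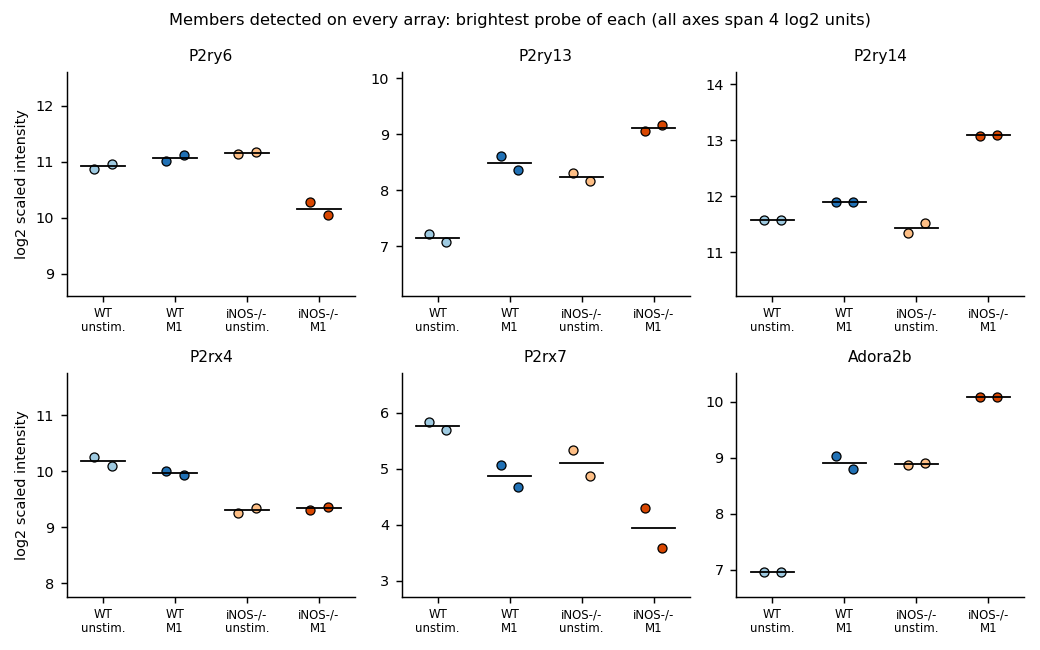
Log2 scaled intensity of each array (points, 2 per group) and the group mean (bars) for the brightest probe of the 6 members detected on every array, with all axes spanning 4 log2 units. Adora2b and P2ry13 step up from WT unstimulated to iNOS-/- M1, P2ry14 is high and P2ry6 low in iNOS-/- M1, and P2rx4 splits by genotype.

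P2rx4, an ATP-gated channel of lysosomes and the cell surface, separated the genotypes and changed little with stimulation. Probe ILMN_1237644 read 1227 and 1090.0 in WT unstimulated, 1026 and 977 in WT M1, 612 and 649.6 in iNOS-/- unstimulated, and 631 and 659.6 in iNOS-/- M1. All 4 arrays labelled iNOS-/- lay below all 4 WT arrays on both probes. Before stimulation P2rx4 was 1.83-fold and 2.09-fold lower on its 2 probes in the arrays labelled iNOS-/- (adjusted p = 0.00262 and 0.00172), and in M1 arrays 1.55-fold and 1.59-fold lower (adjusted p = 0.00452 and 0.00460). The response in the arrays labelled iNOS-/- was log2 0.03 ± 0.10 and 0.00 ± 0.10, neither called, and after quantile normalization the first was -0.27 (adjusted p = 0.0898). In WT both probes read lower after stimulation, ILMN_1237644 by log2 -0.21 ± 0.10, which was not called (adjusted p = 0.162), and ILMN_2620122, the probe printed above, by log2 -0.39 ± 0.10 (adjusted p = 0.0373). The latter call did not survive the loss of any 1 of the 4 WT arrays (adjusted p from 0.0923 to 0.146), and the responses were not called as different on either probe (adjusted p = 0.220 and 0.0866).

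P2rx7, the ATP-gated channel that opens wide under high ATP, had 5 probes, of which 3 were tested. ILMN_3162824, typed in the deposited annotation as specific to an isoform, was detected on all 8 arrays. It read 57.4 and 51.9 in WT unstimulated, 33.7 and 25.6 in WT M1, 40.2 and 29.3 in iNOS-/- unstimulated, and 19.8 and 12 in iNOS-/- M1. The unstimulated WT arrays were the highest and the M1 arrays labelled iNOS-/- the lowest, without overlap with the others. It fell with stimulation in the arrays labelled iNOS-/- by 1.16 on the log2 scale (SE 0.30, adjusted p = 0.0249), a call lost without iNOS-/- unstimulated array 1 (adjusted p = 0.116) or iNOS-/- M1 array 2 (adjusted p = 0.0820). The other differences of this probe were not called: log2 -0.89 ± 0.30 with stimulation in WT (adjusted p = 0.0723), -0.67 ± 0.30 between unstimulated genotypes (adjusted p = 0.154) and -0.93 ± 0.30 between M1 genotypes (adjusted p = 0.0514).

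The other P2rx7 probes were detected on fewer arrays. ILMN_2620381, printed above, read 13.5 and 20.3 in WT unstimulated and 2.16 to 7.42 on the other 6 arrays, 2 of which were detected. On it the unstimulated arrays labelled iNOS-/- were below WT (log2 -1.69 ± 0.41, adjusted p = 0.0303), and that call did not survive the loss of any 1 of the 4 unstimulated arrays (adjusted p from 0.0629 to 0.132). ILMN_3144200, typed as common to all isoforms, read 13.2 and 16.6 in WT unstimulated and 0.601 to 8.45 elsewhere, and was called in no comparison. ILMN_1216885 and ILMN_1248003 were undetected on all 8 arrays. The brightest P2rx7 array group was therefore WT unstimulated on each of the 3 tested probes, while a call depended on the probe. The genes whose log2 values ran most like ILMN_3162824 over the 8 arrays, among 9687 probes detected on every array, were Mxd4 (Pearson r = 0.990), Edg5 (0.987) and 2410016O06Rik (0.983), a description from 4 groups of 2 and not a test. The same ranking was not read for Adora2a and Entpd1, each detected on 3 arrays.

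Entpd1, which encodes CD39 and starts the breakdown of extracellular ATP, gave no called difference. Its probe read 15.1 and 4.11 in WT unstimulated, 6.81 and -2.34 in WT M1, -0.171 and 0.244 in iNOS-/- unstimulated, and 9.55 and 1.44 in iNOS-/- M1. Detection failed on 5 of 8 arrays, and in the 3 groups with a detected array the other array was not detected. The adjusted p-values by limma ran from 0.152 for unstimulated genotypes to 0.783 for M1 genotypes. A change in CD39 messenger RNA was not detectable at this signal.

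Ada, the enzyme that removes adenosine, was near background too. Probe ILMN_2686132 read 2.73 and 0.892 in WT unstimulated, 10.1 and 5.60 in WT M1, 3.16 and 7.64 in iNOS-/- unstimulated, and 8.01 and 9.49 in iNOS-/- M1. It was detected on 4 arrays, none of them WT unstimulated. The nearest to a call was the WT response, with an adjusted p of 0.0529 by limma. Only 1 of the 2 WT M1 arrays was detected, so no bound on its size is given. The other adjusted p-values lay between 0.131 and 0.816. The second probe of Ada, ILMN_1228696, was undetected on all 8 arrays.

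**Figure D4:**
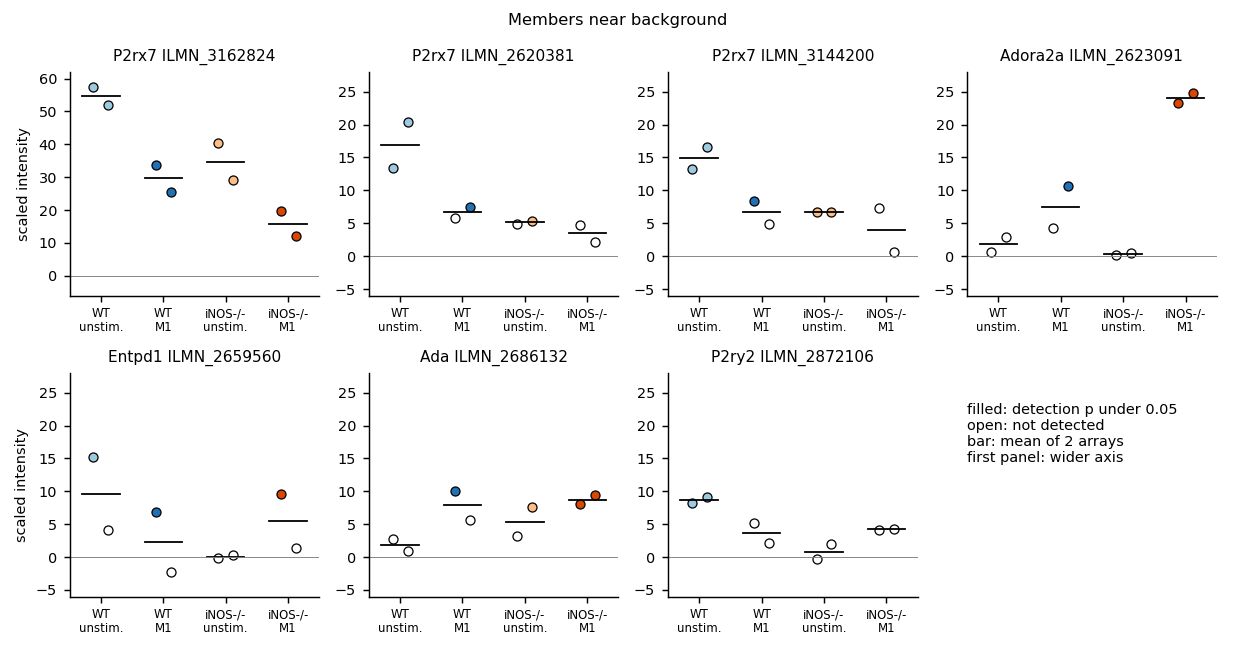
Scaled intensity of each array for 3 probes of P2rx7 and the tested probes of Adora2a, Entpd1, Ada and P2ry2, with filled points for a detection p under 0.05, open points for undetected arrays and bars for the mean of 2 arrays. Adora2a stands out at 23.3 and 24.7 in iNOS-/- M1, the P2rx7 probes are highest in WT unstimulated, and Entpd1 and Ada scatter within groups.

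Other genes of purine signalling were read from lists drawn up by role. Of 51 such genes on the array 36 were tested. In WT, 7 were called higher and 7 lower with stimulation (20.8% and 14.3% of all probes), and in the arrays labelled iNOS-/- 10 and 10 (25.2% and 25.1%). Between genotypes, 5 were higher and 11 lower in unstimulated arrays labelled iNOS-/- (16.7% and 15.4% of all probes), and 7 and 10 in M1 arrays (22.9% and 25.3%). The responses differed for 7 and 9 (19.4% and 22.6%). The median log2 change of these genes was -0.10 and -0.15 for the responses of WT and iNOS-/-, and -0.31 and -0.13 for the unstimulated and M1 genotypes (0.09, 0.00, 0.00 and -0.03 over all tested probes).

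Among the receptors, Adora3, the Gi-coupled A3 adenosine receptor, ran against Adora2b in M1 cells. It read 34.1 and 48.0 in WT unstimulated, 79.8 and 63.6 in WT M1, 165 and 144 in iNOS-/- unstimulated, and 10.6 and 9.85 in iNOS-/- M1. The unstimulated arrays labelled iNOS-/- were thus the highest and the M1 arrays of that label the lowest. The responses differed by log2 -4.73 ± 0.29 (adjusted p = 0.000470). The summed intensity of 11 markers of dividing cells was likewise highest in iNOS-/- unstimulated (2691 to 2724), with 729 to 821 in WT unstimulated, 2255 to 2376 in WT M1 and 954 to 958 in iNOS-/- M1, and its part in the Adora3 result was not tested. P2ry1, an ADP receptor, and the enzyme Entpd4 were picked after their values were seen. P2ry1 read 182 and 229.9 in WT unstimulated and 45.9 and 46.8 in iNOS-/- M1, and it was called lower in each of the 4 comparisons of groups (log2 -0.87 to -1.27). P2rx5, another channel, was higher after stimulation in WT (log2 2.58 ± 0.27, adjusted p = 0.00197) and in unstimulated arrays labelled iNOS-/- (log2 2.97 ± 0.27, adjusted p = 0.00129). P2ry10, a receptor of lysophospholipids in spite of its name, read 25.6 and 23.7 in iNOS-/- M1 and under 11 on every other array.

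Among the enzymes, Nt5e, which encodes the CD73 step from AMP to adenosine, was detected on 6 arrays and lost in the M1 arrays labelled iNOS-/-, at 2.85 and 7.45 against 25.0 and 31.2 in WT M1. It was lower there by at least 3.75-fold against WT M1 (adjusted p = 0.00659) and at least 6.97-fold against iNOS-/- unstimulated (adjusted p = 0.00204). Entpd4, a nucleoside diphosphatase of internal membranes, read 162 and 142 in the same arrays and 415 to 726 on the other 6 (log2 -1.46 ± 0.12 against WT M1, adjusted p = 0.000555). Enpp4, a surface enzyme that hydrolyses dinucleotides, went up with stimulation by log2 1.71 ± 0.20 in WT and 4.18 ± 0.20 in the arrays labelled iNOS-/- (adjusted p = 0.00276 and 8.3e-05). Nt5c3, a cytosolic pyrimidine nucleotidase, did likewise by log2 2.07 ± 0.10 and 4.04 ± 0.10 (adjusted p = 0.000144 and 1.75e-05).

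Of 10 genes of nucleotide release and nucleoside transport 4 were tested, and 1 of them, the ATP channel gene Panx1, was called in no comparison. Slc29a1, the equilibrative nucleoside transporter ENT1, was lowest in iNOS-/- M1 at 47.3 and 67.6, against 174 and 187 in WT M1 (log2 -1.67 ± 0.20, adjusted p = 0.00177). Its relative Slc29a3 read 262 and 297 against 552 and 522 (log2 -0.95 ± 0.11, adjusted p = 0.00153). Gja1, a connexin that can release ATP, was undetected in WT unstimulated and at 41.7 and 44.4 in WT M1, a rise of at least 7.64-fold (adjusted p = 0.0120). In the arrays labelled iNOS-/- it read 1.20 and 5.77 unstimulated and 135 and 144 as M1. That rise was log2 5.73 (adjusted p = 0.00185 by limma), and log2 2.89 by neqc. Dpp4 encodes CD26, a surface peptidase to which adenosine deaminase binds in some species, and it was undetected in WT unstimulated alone. It read 403 and 396 in WT M1 and 434 and 464 in iNOS-/- unstimulated, at least 70.9-fold and 79.7-fold above WT unstimulated (adjusted p = 0.000538 and 0.000566).

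**Figure D5:**
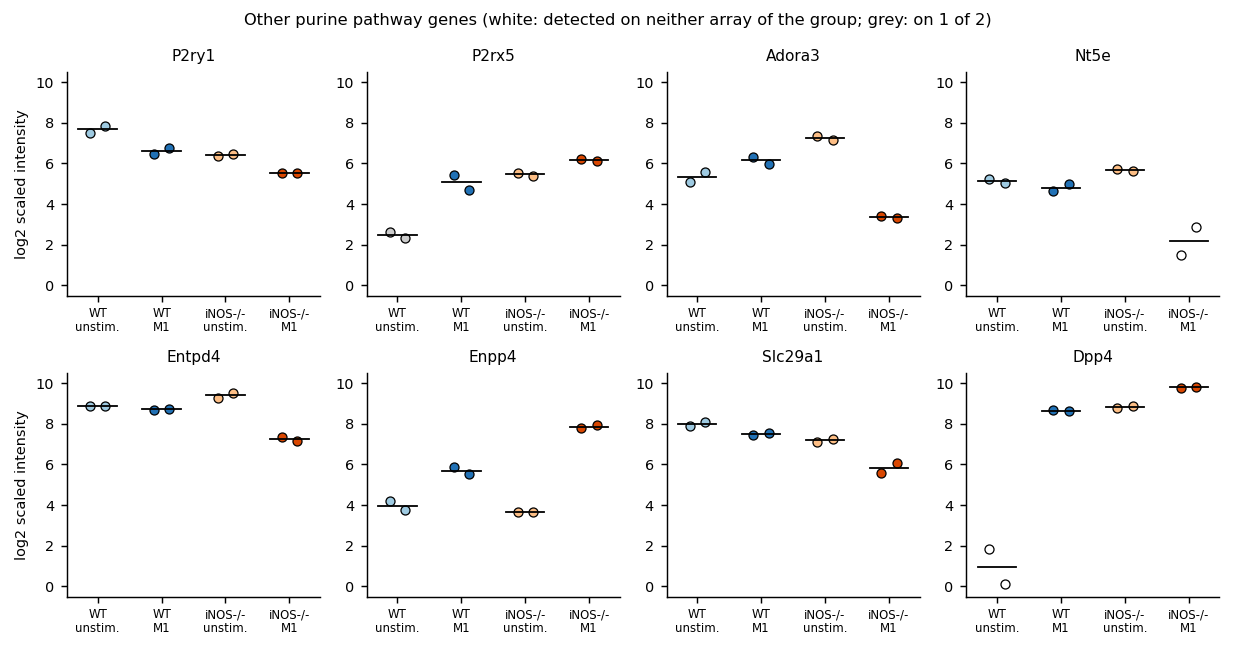
Log2 scaled intensity of each array (points) and the mean of the 2 arrays (bars) for 8 other genes of purine signalling, with white points where neither array of a group was detected and grey points where 1 was. Adora3, Nt5e and Entpd4 are lowest in iNOS-/- M1, Enpp4 is highest there, and Dpp4 is absent from detection in WT unstimulated only.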

How the data were processed

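RNA was hybridised to 8 Illumina mouse bead arrays, named MouseRef-8 in the series text and MouseWG-8 in the methods. The deposited table gives, for every probe on each array, an intensity and the p-value of its detection; per the file headers the authors exported it without normalization or background correction, yet 25.2% to 27.2% of the intensity values per array lay below 0, as after a background subtraction. The submitters' processing notes name GenomeStudio and limma 3.14.4. Arrays were grouped by their labels. Every value column matched an array (0 unmatched).

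The rank-invariant scaling of the methods was rebuilt by a robust regression (MASS 7.3.60.0.1) of each array against the mean of all arrays. Values under 1 were set to 1 (the methods do so for negative values), and log2 was taken. The size of a change near background depends on this floor and can be larger than by another setting. For Nt5e between M1 genotypes it was log2 -2.60 here, -0.94 by neqc and -0.80 with a floor of 16. Probes detected on at least 2 arrays at p under 0.05 were fitted with limma 3.58.1 (lmFit, eBayes) in R 4.3.3 over all 8 arrays, 1 mean per group, with Benjamini-Hochberg adjustment over 13868 probes, and called at an adjusted p under 0.05. The fit was tested on simulated data with changes placed in brighter probes only, so changes near background were not covered. A group undetected on both arrays gives only a bound ("at least"), set against the higher of the probe's value and the dimmest detected signal of each array. No bound is given unless the other group was detected on both arrays. The number of arrays and the signal over background limit the precision.

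The members, pathway lists and markers were chosen with earlier results of these data known, and no test of a list was made. Named were all members, Nos2, some of the called genes with the 2 largest changes of a pathway list in a comparison, and markers that moved with a result. P2ry1 and Entpd4 lie outside the rule of the largest changes, and genes that met it, among them Enpp1, P2rx1, Ampd2 and Pnp1, are not described. For P2rx7 the 3 most correlated genes were named (the same held for Adora2a and Entpd1 by plan, but each was detected on too few arrays). A gene outside the members is given by its brightest probe. Probe coordinates were not used, since the deposited table names no build for them. Promoter sequences are from RefSeq (GRCm38.p6), where 8 of 10 members matched by symbol. Alternatives were other scalings (quantile, neqc), floors, detection filters, an intensity trend, the replicate block, only the arrays compared, a minimum fold and each array left out.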

Additional observations from a re-analysis of the deposited data

Results flagged for a closer look

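For 5 probes of 3 members the response to stimulation differed between the genotypes by limma's test of the interaction. Adora2b rose by log2 1.96 in WT and 1.19 in the arrays labelled iNOS-/-, a difference of -0.77 (adjusted p = 0.00992). P2ry6 changed by 0.15 and -1.0, a difference of -1.15 (adjusted p = 0.00388). On the 3 probes of P2ry14 the differences were 1.33, 1.05 and 1.79, with adjusted p-values of 0.00147, 0.00998 and 0.00102, since the rise was 1.64 to 1.79 in the arrays labelled iNOS-/- and -0.15 to 0.74 in WT. For P2ry2 the fit gave 2.92 (adjusted p = 0.0236), but the probe was above background in WT unstimulated alone, so no difference of the responses is read from it. With 2 arrays in a group, no array could be tested as an outlier within its group.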

How the results depend on the processing

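The replicate numbers did not pair the arrays (correlations of replicate differences between groups from -0.034 to 0.027 over 9687 probes). With the replicate block, the called member probes were 10 for iNOS-/- M1 against WT M1 (8 without it), 6 for the unstimulated genotypes (6), 5 for the WT response (5), 8 for the iNOS-/- response (9) and 7 for the difference of the responses (6). Over all probes the block lowered the calls, from 6687 to 6276 for the M1 genotypes, 4459 to 3902, 4869 to 4296, 6975 to 6612 and 5829 to 5326 in the same order. Asking for a change of at least 2-fold left 4 called probes for the M1 genotypes and 2 for the WT response. The WT count was 8 by neqc, 8 with an intensity trend and 3 when only the arrays compared were fitted. With each array left out in turn, the counts ran from 7 to 11 for the M1 genotypes, 4 to 6 for the unstimulated genotypes, 3 to 7 for the WT response, 7 to 10 for the iNOS-/- response and 5 to 7 for the difference of the responses. Asking, after the data were seen, that a compared group be detected on both arrays took 1 call, that of P2ry2, from the iNOS-/- response. The other counts stayed within 1.5 times the reported ones.

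Single values of the tested member probes gave 624 comparisons with another setting. In 556 the direction and the side of the threshold held, in 20 the call was lost, in 37 a call was gained and in 11 the direction turned. With an array left out, 306 of 359 held and 14 turned. For 22 more, every compared value was at the floor and none could be given. None of the values that turned was called before. Among the brightest probes, P2rx4 turned in the iNOS-/- response (-0.27 by both quantile normalization and neqc, and -0.010 to 0.077 with an array left out) and in the difference of the responses (-0.080 by quantile normalization and -0.076 by neqc). P2rx7 turned in the difference of the responses (0.020 by quantile normalization, 0.15 by neqc, and -0.62 to 0.10 with an array left out). With an array left out, the log2 difference of the M1 genotypes ran from -0.21 to 0.64 for Ada, -0.88 to 1.89 for Entpd1 and -0.30 to 0.92 for P2ry2. P2rx7 (ILMN_3162824) was called between M1 genotypes, between unstimulated genotypes and in the WT response with the replicate block (adjusted p = 0.0131, 0.0457 and 0.0213). The cause of these shifts was not tested.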
